A study of Caenorhabditis elegans with 2 samples.

Results

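Of the 1648 nuclear peaks in the optimal list of UNC-130::GFP ChIP-seq peaks, 219 had their summit within 500 bp of the 5' end of a tRNA gene. The list holds 1667 peaks in all, of which 19 lie on mitochondrial DNA and were left out. These 219 summits lay near 252 of the 612 nuclear tRNA genes in the annotation of Caenorhabditis elegans. Within the nuclear part of the list the peaks were chosen by distance from a tRNA gene alone. The list itself ends at a nuclear signal of 58.8, and the gene context of the peaks follows the places of tRNA genes.

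The study mapped UNC-130, a forkhead transcription factor, in 1 group of 2 biological replicates. Each was chromatin of whole L4 larvae, hermaphrodites of strain AGK541 taken 48 h after synchronization at the starved L1 stage, and the immunoprecipitation used an anti-GFP antibody. Both carried the insertion armSi1 on chromosome II, in which Pmex5 drives UNC-130::GFP with the tbb-2 3'UTR beside the marker cb-unc-119(+). They also carried unc-119(ed3) on chromosome III and niDf199 on chromosome IV. The mex-5 promoter is active in the germline, so the tagged protein was made from a transgene and not under the control of unc-130 itself. The labels describe the tag as GFP, as eGFP and as GFP-FLAG. All lists were made against 1 control file, and precipitations from worms with no tagged protein were not analysed here. All peak and gene positions are on ce11. The signal of a peak was computed by the authors, on a scale that is not stated, and serves here to rank peaks within a list.

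Transfer RNAs bring amino acids to the ribosome, and each nuclear tRNA gene is transcribed by RNA polymerase III. The promoter lies inside the gene. Its A box and B box are bound by the factor TFIIIC, which places TFIIIB upstream. TFIIIB brings the polymerase to the start site, and a short run of T ends transcription. Many worm tRNA genes occur in identical copies, and many lie within introns of protein-coding genes or beside other tRNA genes.

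The B box is the stretch of the gene that the summits are set against here, so 30 bases around it are shown for 7 named genes with a summit nearby. The sequences are from RefSeq on WBcel235, the assembly that ce11 names, in the direction of tRNA transcription. Capitals mark the match to the B box core, searched as GTTCNANNC. The first 6 genes are among the 10 with the peaks of highest signal, and the last is the glutamine gene with the higher of the 2 glutamine peaks. The methionine gene T15B12.t1, also among those 10, holds no match to the searched core.

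T23F1.t2 (Pro, chrV:15465227-15465256, minus strand): agaggtcccggGTTCAATCCccggttcggc
F15G9.t2 (Ala, chrX:9743787-9743816, plus strand): agagggctgggGTTCAATTCcccatacctc
R04D3.t2 (Val, chrX:13307075-13307104, plus strand): gaagatcgccgGTTCGAACCcggctaggac
F10C1.t1 (Gly, chrII:5782214-5782243, minus strand): gggcggcccggGTTCGATTCccggtcgata
Y38E10A.t1 (Ala, chrII:12678354-12678383, plus strand): agaagtctgggGTTCGATTCcccatacctc
C04A11.t1 (Leu, chrX:13665642-13665671, plus strand): tgggtgcgtggGTTCGAATCccacttcgtg
T03E6.t1 (Gln, chrV:16592239-16592268, minus strand): ctgcgacccgaGTTCAAATCtcggtgggac

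The core begins at base 52 of T23F1.t2 and at base 99 of C04A11.t1, a leucine gene of 119 bp. Over all tRNA genes that hold the core it began at a median of base 53, and the genes had a median length of 72 bp (64 to 122).

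The summits lay on or beside the short tRNA genes. The median position was 22 bp downstream of the 5' end (quartiles -4.50 and 60.5 bp). In matched peaks of replicate 1 alone the median was 18 bp and in those of replicate 2 alone it was 19.5 bp. Of the 219 summits, 129 (58.9%) fell inside the nearest tRNA gene, 57 lay upstream of it and 33 downstream. Although the rule allowed 500 bp, 143 summits were within 50 bp of the 5' end and 205 within 100 bp. The median distance to the middle of the gene was 31 bp, and the summit lay a median of 34 bp before the first base of the B box core in the genes that hold it. The summit of a replicate's own peak differed from the optimal one by a median of 18 bp in replicate 1 and 6 bp in replicate 2.

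**Figure D1:**
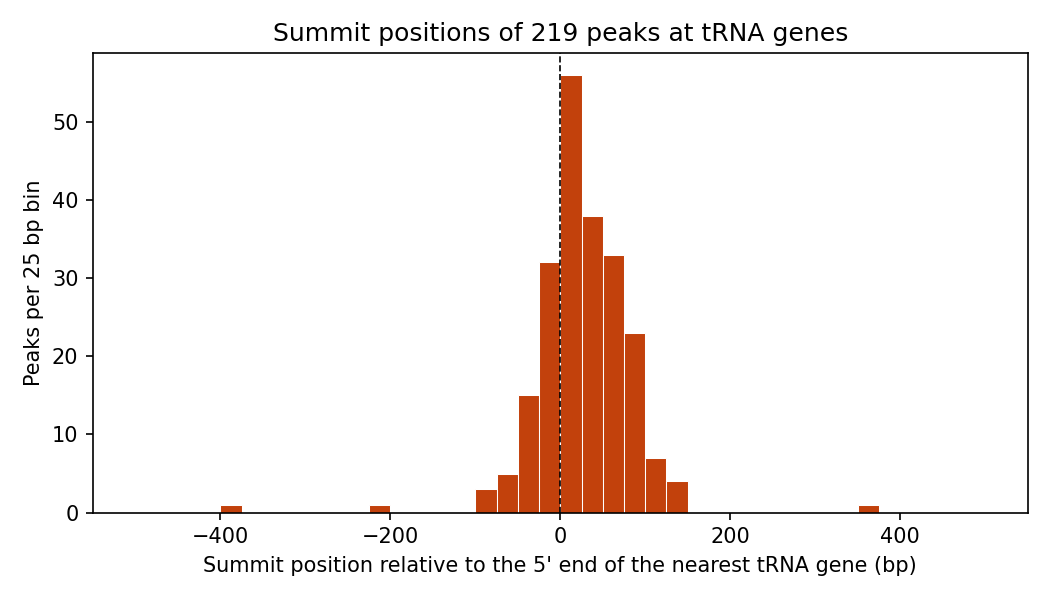
Number of summits in 25 bp bins (vertical axis) by position relative to the 5' end of the nearest tRNA gene in bp (horizontal axis), positive in the direction of transcription, with the dashed line at the 5' end. The summits gather around the gene, with 143 of 219 within 50 bp and none between 398 and 500 bp away.

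The members farthest from a 5' end were those at T04D3.t4 (398 bp, signal 119.6), C16D9.t4 (372 bp, signal 71.96) and Y38E10A.t1 (210 bp, signal 126.8). Just outside the limit lay summits 577 bp from F15D3.t1 (signal 84.50), 620 bp from Y22D7AL.t3 (signal 80.14) and 858 bp from T19C4.t1 (signal 89.97). These distances describe the limit only.

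A summit was found at 252 of 612 tRNA genes (41.2%, 95% Wilson interval 37.3 to 45.1). The background over all 46890 nuclear genes scored in the same way was 4.63% (2171 genes), and the share of protein-coding genes was 6.66%. Annotated tRNA pseudogenes, which resemble tRNA genes in sequence, had a summit at 5 of 209 (2.39%, 1.03 to 5.48). Among the 1667 highest peaks of replicate 1 alone, 267 tRNA genes had a summit (43.6%), against a background of 4.53%. In replicate 2 alone there were 228 (37.3%), against a background of 4.54%. The mean of the replicates was 40.4% ± 4.51 (SD, n = 2). Of the 267 genes in replicate 1, 65.9% were also among those of replicate 2, and of the 228 genes in replicate 2, 77.2% were also among those of replicate 1. The SD and the 2 lists measure the spread between these 2 samples, and a design with 1 group allows no test between samples.

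Most tRNA genes with no summit in the optimal list had a weaker one. The relaxed list of the pooled reads, which by its label holds background too, had a summit at 535 tRNA genes (87.4%), against a background of 19.9% over all nuclear genes. Of the 360 tRNA genes outside the optimal list, 283 (78.6%) had a summit in the relaxed pooled list. The signal of those summits had a median of 42.5 (quartiles 29.7 and 50.1), and the lowest nuclear signal in the optimal list was 58.8. Only 57 of the 360 genes had no summit in any of the 3 relaxed lists. For those 283 genes, having no summit in the optimal list means a signal below the level at which that list ends.

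The signals of the tRNA peaks were moderate for the list. They ran from 58.8 to 182.1 with a median of 79.8 (quartiles 68.5 and 94.1), against a median of 88.8 and a highest value of 717.0 for the other 1429 nuclear peaks. Their median rank percentile was 41.7, against 52.2 for the other peaks. No tRNA peak was among the 100 highest nuclear peaks, and 78 (35.6%) were above the middle of the list, against 737 other peaks (51.6%). In matched peaks of replicate 1 the median signal was 33.6 at tRNA genes and 36.1 elsewhere. In replicate 2 it was 45.6 at tRNA genes and 54.6 elsewhere. All 219 tRNA peaks were 420 bp wide, as were 1210 of the 1429 other peaks, whose widths ran from 105 to 449 bp. Only 8 of the 106 other peaks with signals above the highest tRNA peak had that width.

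The order of tRNA peaks by signal was only loosely shared by the replicates. Over 217 tRNA peaks matched within 200 bp in both, Spearman's rho between the replicates' signals was 0.303, against 0.658 over 1423 other peaks. Over the 1316 other peaks within the signal range of the tRNA peaks, rho was 0.572. Among the 1196 of these that also had the width of 420 bp, it was 0.478. Signals still spread more widely there, with quartiles of 68.8 and 104.7 over 1201 such peaks, against 68.5 and 94.1 for tRNA peaks. On X, rho was 0.433 over 89 tRNA peaks, and on the autosomes it was 0.225 over 128. The peaks of a replicate share 1 library and 1 control, and the peaks entered the list by their pooled signal, so these values are descriptions. A match within 200 bp was found for 218 of the 219 peaks in each replicate. The exceptions were C40H5.t1, a leucine gene with no nearby summit in replicate 2, and T06H11.t2, an arginine gene whose nearest summit in replicate 1 was 206 bp away.

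**Figure D2:**
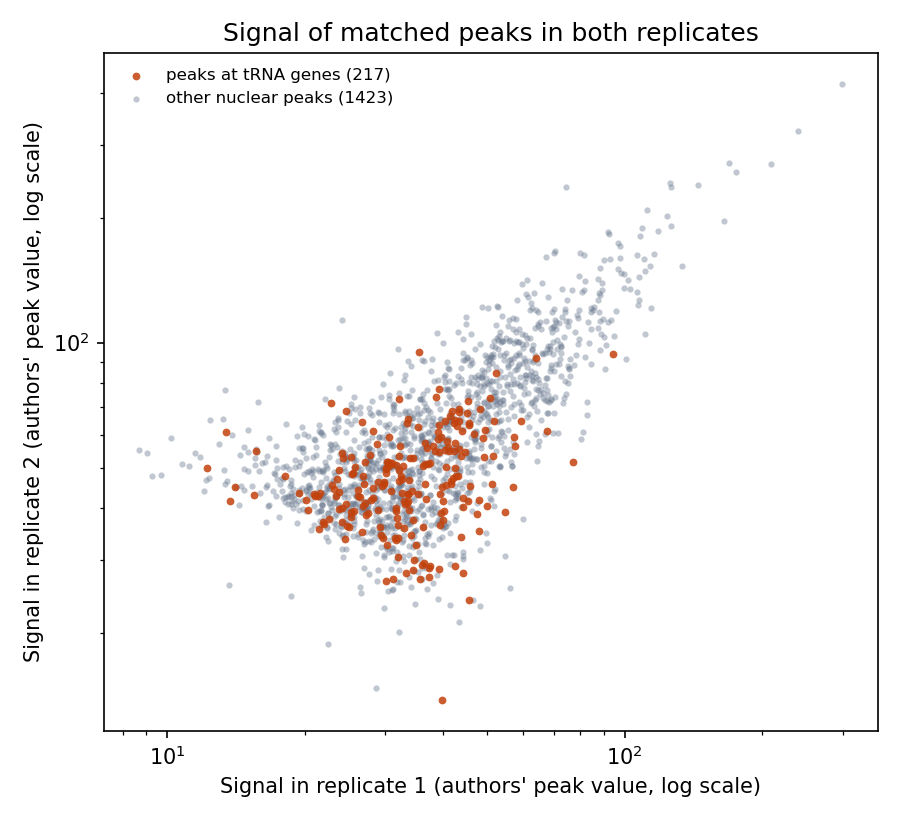
Signal in replicate 2 (vertical axis) against signal in replicate 1 (horizontal axis), both the authors' peak values on log scales, for 217 peaks at tRNA genes and 1423 other nuclear peaks matched in both replicates. The tRNA peaks lie below 95 on both axes, while other peaks reach 299.0 in replicate 1 and 420.1 in replicate 2.

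The peak of highest signal (182.1, rank 107 of the nuclear peaks) was at chrV:15464991-15465410. Its summit lay between the lysine gene T23F1.t1 and the proline gene T23F1.t2, which are 66 bp apart and point towards each other. Replicate 1 gave it a signal of 94.3 and replicate 2 one of 93.7. The second, at chrX:9743473-9743892 (159.7), lay between the alanine genes F15G9.t1 and F15G9.t2 in an intron of him-4, which encodes the extracellular matrix protein hemicentin. Its signal was 64.0 in replicate 1 and 91.9 in replicate 2.

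The valine gene R04D3.t2 had a peak of signal 134.9 at chrX:13306864-13307283, with 52.4 in replicate 1 and 84.4 in replicate 2. The threonine gene F52C9.t1 had one of 132.4 at chrIII:5305689-5306108, with 67.6 in replicate 1 and 61.3 in replicate 2. The methionine gene T15B12.t1 followed with 129.5, and its signal was 50.7 in replicate 1 and 73.4 in replicate 2. These peaks all stood above the upper quartile of the tRNA peaks.

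The replicates ranked a pair of the highest peaks in opposite ways. The glycine gene F10C1.t1 (128.7) had 77.0 in replicate 1, its rank 90, and 51.6 in replicate 2, its rank 875. The alanine gene Y38E10A.t1 (126.8) had 35.5 in replicate 1, its rank 858, and 94.8 in replicate 2, its rank 182. This summit was 210 bp upstream of Y38E10A.t1 and 294 bp upstream of the coding gene Y38E10A.22. A second tRNA peak, at chrII:12678104-12678523, had its summit at the 5' end of Y38E10A.t1 itself. Its signal was 68.84, below the median of the tRNA peaks (79.8), with 26.4 in replicate 1 and 42.4 in replicate 2. The other genes among the 10 highest were C15C6.t1 (Arg, 121.4), T04D3.t4 (Thr, 119.6) and C04A11.t1 (Leu, 117.3). On X, the peaks next in signal after C04A11.t1 were at the proline gene F46G11.t1 (117.2) and the glycine gene M02F4.t1 (112.7). The peaks of lowest signal, from 58.85 to 59.60, were at Y53C12A.t1 (Phe), C24H11.t1 (Thr), ZK899.t1 (Pro), F57G8.t1 (Asn) and K01A12.t4 (Cys).

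All 20 standard amino acids had at least 1 tRNA gene with a summit, and the median share over amino acids was 39.4%. Threonine had the highest share, with 20 of 34 genes (58.8%, 42.2 to 73.6), and it held 20 genes in replicate 1 and 17 in replicate 2. Glycine followed with 30 of 55 genes (54.5%, 41.5 to 67.0), though its count was 37 in replicate 1 and 23 in replicate 2. Asparagine (10 of 20), glutamate (20 of 41), arginine (21 of 44) and alanine (16 of 34) lay between 47.1% and 50%. Their intervals overlap one another and those of threonine and glycine.

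Glutamine had the lowest share, with 2 of 27 genes (7.41%, 2.06 to 23.4), against 250 of the 585 genes of all other identities (42.7%, 38.8 to 46.8). In replicate 1 alone 7 glutamine genes had a summit (25.9%), and in replicate 2 alone 3 did (11.1%). Glutamine was the lowest of the 20 amino acids in replicate 2 and the third lowest in replicate 1. In the relaxed pooled list 24 of the 27 glutamine genes had a summit, and the highest signal among those outside the optimal list was 58.7, just under the lowest nuclear signal of the optimal list (58.8).

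The 2 glutamine peaks were at T03E6.t1 on V (96.93, with 42.4 in replicate 1 and 54.7 in replicate 2) and at R04A9.t1 on X (83.84, with 31.6 in replicate 1 and 50.6 in replicate 2). Most other glutamine genes thus had a summit below the level at which the optimal list ends. Phenylalanine (3 of 14, 21.4%), histidine (5 of 20, 25%) and tryptophan (3 of 12, 25%) were the next lowest. Phenylalanine had 5 genes with a summit in each replicate alone. The gene for selenocysteine and the 5 genes of undetermined identity had none.

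**Figure D3:**
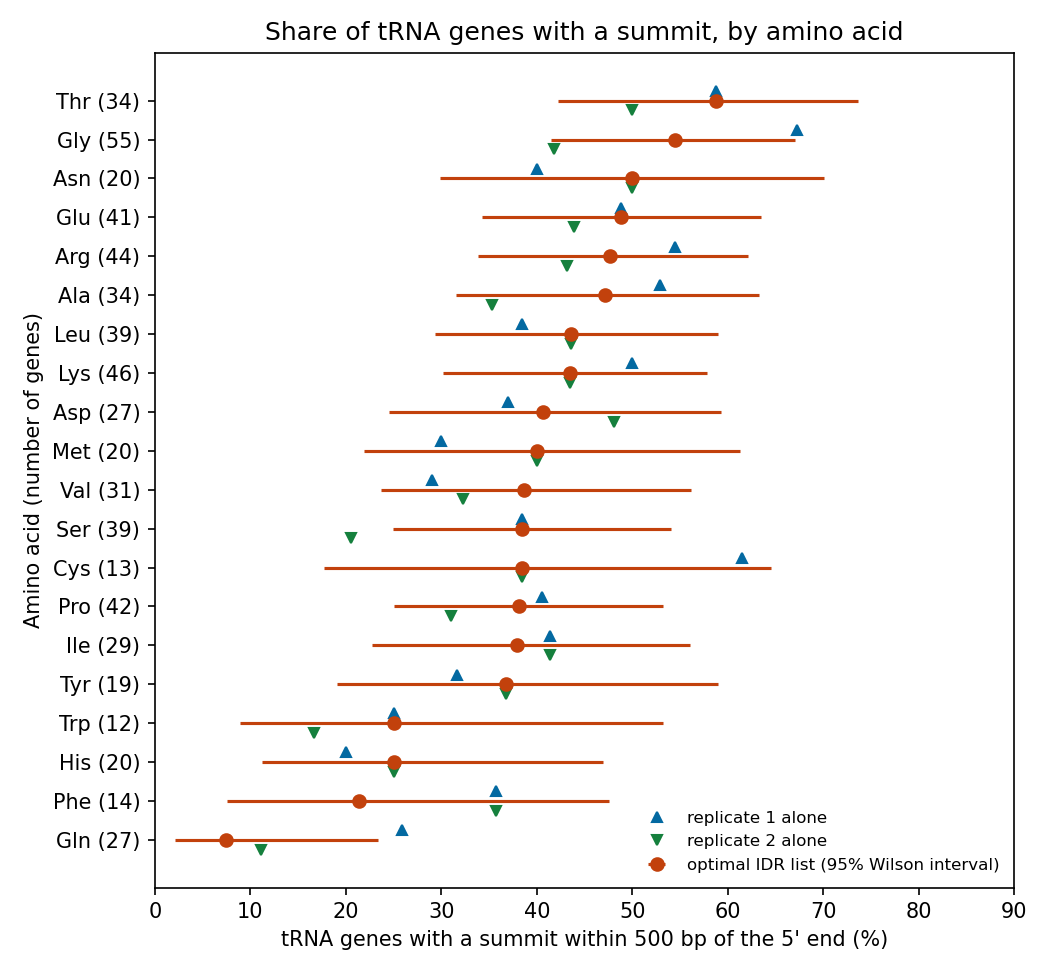
Share of tRNA genes with a summit within 500 bp of the 5' end (horizontal axis, percent) for each amino acid, with the number of genes in parentheses. Circles with bars give the optimal list and its 95% Wilson interval and triangles each replicate alone. Glutamine stands at 7.41% at the bottom and threonine at 58.8% at the top, and replicate 1 alone lies at 67.3% for glycine.

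With each peak given to its nearest tRNA gene only, the highest peak of each remaining amino acid had a signal between 79.06 and 114.8. By the 500 bp rule, 2 of these amino acids had higher peaks that were nearer to a gene of another amino acid. The lysine gene T23F1.t1 shared the peak of 182.1 with a proline gene, and the glutamate gene M02F4.t2 shared that of 112.7 with a glycine gene. The isoleucine gene F33G12.t1 (114.8), the histidine gene C06G1.t1 (112.4) and the lysine gene K08E7.t1 (111.8) lay in introns, the last in an intron of pgp-1, which encodes a P-glycoprotein transporter. The glutamate gene C04C11.t1 (110.7) was intergenic. The serine gene E03E2.t1 (109.0) lay in an intron of cat-1, which encodes the vesicular monoamine transporter. The aspartate gene K02D7.t1 (108.5) overlapped an exon of grl-26. The asparagine gene F41D9.t3 (108.0) lay in an intron of sulp-3. For tryptophan it was B0523.t1 (96.00) in an intron of fli-1, and for cysteine C37A2.t1 (94.33) in an intron of cye-1, which encodes cyclin E. For tyrosine it was C02B4.t2 (92.72) in an intron of nhr-17, a nuclear hormone receptor gene, and for phenylalanine T28B4.t1 (79.06) in an intron of fbxl-4.

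On the X chromosome most peaks of the optimal list were tRNA peaks. Of the 110 peaks on X, 91 were at tRNA genes (82.7%, 74.6 to 88.7), against 128 of 1538 on the autosomes (8.32%, 7.04 to 9.81). In replicate 1 alone the share was 77.4% on X (96 of 124) and 8.42% on the autosomes. In replicate 2 alone it was 79.4% on X (85 of 107) and 7.60% on the autosomes. X holds 276 of the 612 tRNA genes (45.1%), 13.7% of protein-coding genes, 41.6% of the tRNA peaks and 1.33% of the other peaks (19 peaks). In the relaxed pooled list, 234 of 1747 summits on X were at tRNA genes (13.4%), against 292 of 15193 on the autosomes (1.92%).

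The share of tRNA genes with a summit was near the same on X and on the autosomes. It was 109 of 276 on X (39.5%, 33.9 to 45.4) and 143 of 336 on the autosomes (42.6%, 37.4 to 47.9). Over the replicates alone it averaged 40.4% ± 4.87 on X and 40.5% ± 4.21 on the autosomes (SD, n = 2 each). The difference was -3.07 percentage points in the optimal list, 0.388 in replicate 1 alone and -0.543 in replicate 2 alone. The SD of the 2 replicate values was 0.659, so -3.07 lay outside their spread, though the intervals of X and the autosomes overlap. An SD of 2 values does not measure counting error. The signals of the tRNA peaks had a median of 79.5 on X and 80.0 on the autosomes. X thus had many tRNA genes and tRNA peaks and few other peaks, while the share of its tRNA genes with a summit was close to that of the autosomes. The cause was not tested. Among the autosomes the share was 40.9% on I, 54.4% on II, 54.7% on III, 39.4% on IV and 28.2% on V. For V it was 24.4% in replicate 1 and 28.2% in replicate 2, the lowest chromosome in both.

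**Figure D4:**
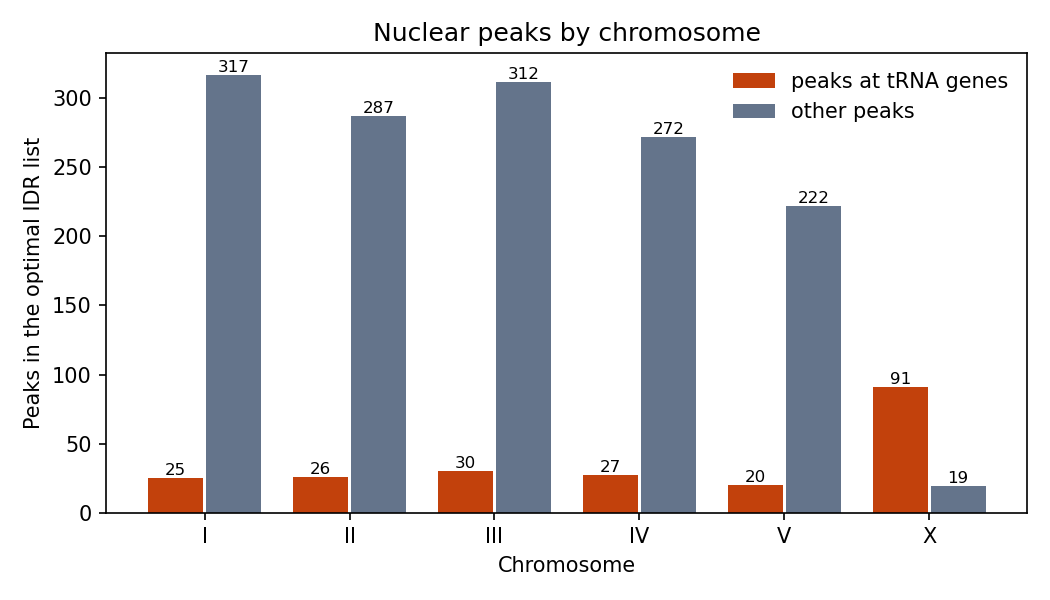
Number of optimal-list peaks (vertical axis) on each nuclear chromosome (horizontal axis), with peaks at tRNA genes in the left bar and other peaks in the right bar. X has 91 tRNA peaks and 19 others, while each autosome has 20 to 30 tRNA peaks and 222 to 317 others.

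tRNA genes were called clustered where the 5' ends of neighbours lay within 2000 bp, which gave 111 clusters with 269 genes. Of these clusters, 58 are on X. A summit was found at 100 clustered genes (37.2%, 31.6 to 43.1), against 152 of 343 lone genes (44.3%, 39.1 to 49.6). The difference of -7.14 percentage points was -0.901 in replicate 1 alone and -8.10 in replicate 2 alone. The difference changed sign with a distance of 1000 bp (1.20) and in the relaxed pooled list (4.54). Neighbours can share a peak, and counted by cluster, 60 of the 111 clusters (54.1%) had at least 1 gene with a summit. A cluster has more genes than a lone gene, so this share and that of lone genes are not on the same footing. Counted by peaks, 66 were at clustered genes and 153 at lone genes, or 24.5 and 44.6 per 100 genes. A peak shared by neighbours counts once there. In clusters of 3 or more genes, 27 of 99 genes had a summit (27.3%).

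On X the shares were 46 of 151 clustered genes (30.5%, 23.7 to 38.2) and 63 of 125 lone genes (50.4%, 41.8 to 59.0). On the autosomes they were 54 of 118 clustered genes (45.8%, 37.0 to 54.7) and 89 of 218 lone genes (40.8%, 34.5 to 47.5). Lone genes on X were higher than clustered ones in both replicates alone, at 50.4% against 38.4% in replicate 1 and 46.4% against 29.1% in replicate 2. On the autosomes replicate 1 gave 49.2% of clustered and 40.4% of lone genes, and replicate 2 gave 37.3% of clustered and 37.6% of lone genes.

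The 5 clusters with 5 or more genes were all on X. The largest, F22F1.t2 to F22F1.t9, had 8 intergenic genes for aspartate, isoleucine, methionine and serine and no summit in the optimal list. In the relaxed pooled list 7 of its 8 genes had one, with signals of 24.4 to 51.1. The F28H6 cluster of 6 histidine genes had none in the optimal list either, and 4 genes had relaxed summits of 16.5 to 27.4. The H08J11 cluster of 5 glutamine genes lies in an intron of ajm-1, which encodes a protein of apical junctions. It had no summit in the optimal list, relaxed signals of 46.5 to 54.6, and 3 genes with a summit in replicate 1 alone.

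A single peak could serve several genes. The K01A12 cluster, with 3 cysteine and 2 arginine genes in an intron of K01A12.3, had all 5 genes within 500 bp of 1 summit of signal 59.60. The R04E5 cluster had 3 of its 5 genes near a summit of signal 70.63. In all, 189 peaks had 1 tRNA gene within 500 bp, 28 had 2, 1 had 3 and 1 had 5. Of the 28 gene pairs, 13 were divergent, 9 tandem and 6 convergent, and 20 carried the same amino acid. The summit fell between both genes of 20 of these pairs. It did so at the divergent pairs F46G11.t2 and F46G11.t1 (117.2, both proline) and M02F4.t2 and M02F4.t1 (112.7, glutamate and glycine). On II, the threonine and lysine genes stand in tandem at W09G10 (107.8), C16C8 (96.69) and W10G11 (93.56), and all 3 summits lay between the genes.

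Over all chromosomes together, the shares inside introns and between genes were close. A summit was found at 115 of 283 tRNA genes inside introns (40.6%, 35.1 to 46.4) and at 132 of 319 intergenic ones (41.4%, 36.1 to 46.9). The difference of -0.743 percentage points was 0.909 in replicate 1 alone and 1.80 in replicate 2 alone. Of the 10 tRNA genes overlapping exons, 5 had a summit. Within introns, genes on the strand opposite to the host had a summit in 56 of 122 cases (45.9%, 37.3 to 54.7), against 59 of 161 on the same strand (36.6%, 29.6 to 44.3).

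The tRNA summits lay in other surroundings than the rest of the list. Of the 219 summits, 99 (45.2%) lay in introns, against 192 of the other 1429 (13.4%). Intergenic DNA held 113 tRNA summits (51.6%) and 1091 other summits (76.3%). Coding promoter windows were taken to reach 1000 bp before and 200 bp beyond a coding gene's 5' end. They held 55 tRNA summits (25.1%, 19.8 to 31.3) and 1048 others (73.3%, 71.0 to 75.6). The rule places summits at tRNA genes, so these shares follow the places of tRNA genes. The tRNA genes within such a coding promoter window had a summit in 62 of 113 cases (54.9%, 45.7 to 63.7), against 190 of 499 outside (38.1%, 33.9 to 42.4). For the genes inside the windows the share was 53.1% in replicate 1 and 41.6% (32.9 to 50.8) in replicate 2. For those outside it was 41.5% in replicate 1 and 36.3% (32.2 to 40.6) in replicate 2. In the relaxed pooled list the shares were 88.5% inside and 87.2% outside. The distance rule cannot tell a summit of a coding promoter from one of a tRNA gene close to it. Near snoRNA genes lay 1 tRNA summit (0.457%, 0.0807 to 2.54) and 92 others (6.44%, 5.28 to 7.83). For snRNA genes the counts were 1 (0.457%, 0.0807 to 2.54) and 31 (2.17%, 1.53 to 3.06). For miRNA genes they were 0 (0%, 0 to 1.72) and 10 (0.700%, 0.381 to 1.28). For piRNA loci they were 8 (3.65%, 1.86 to 7.04) and 23 (1.61%, 1.07 to 2.40). The intervals overlap for all of these except snoRNA genes, and these shares too follow the places of tRNA genes.

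The 612 genes have 200 distinct sequences, of which 143 occur once. Genes of single-copy sequence had a summit in 37 of 143 cases (25.9%, 19.4 to 33.6), against 215 of 469 genes with at least 1 identical copy (45.8%, 41.4 to 50.4). The difference of -20.0 percentage points was -18.6 in replicate 1 and -21.2 in replicate 2. Single-copy genes were also lower on X (22.8% against 43.8%) and on the autosomes (27.9% against 47.6%), and among lone genes (26.4% against 50.8%) and clustered ones (25% against 40.1%). No source used here says how reads from identical genes were placed, and their part in these values was not tested. Single-copy genes with peaks among the 10 highest were F10C1.t1, C15C6.t1 and C04A11.t1.

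In the optimal list, identical genes did not all have a summit together. Each of the 20 families with 10 or more copies, 317 genes in all, had copies with and copies without one there, from 6.67% to 80% of copies with a median of 43.4%. In the relaxed pooled list every copy had a summit in 10 of the 20 families, among them the glycine family of 29 and the lysine family of 25. In those families the copies differed in whether their signal reached the level of the optimal list. The largest, a glycine family of 29 copies, had 19 with a summit (23 in replicate 1 and 12 in replicate 2), with signals from 60.7 to 112.7. The lysine family of 25 had 11 and the proline family of 24 had 10, whose signals ran from 59.4 to 182.1. The proline genes T23F1.t2 on V and F46G11.t1 on X belong to it and have the same B box sequence. An arginine family of 10 copies, all on X, had 8 copies with a summit. The glutamine family of 15 had 1, though 14 of its copies had a summit in the relaxed pooled list.

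**Figure D5:**
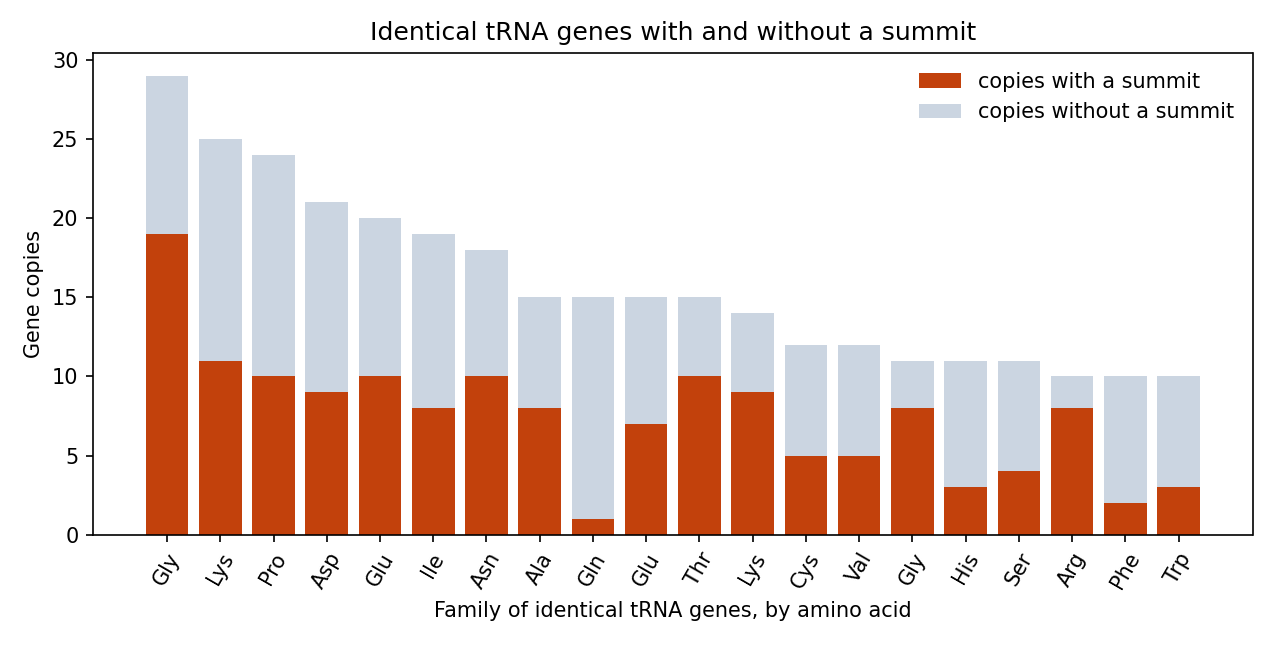
Gene copies (vertical axis) with a summit in the optimal list (dark part of each bar) and without one (light part) in the 20 families of 10 or more identical tRNA genes, labelled by amino acid. The glycine family of 29 has 19 copies with a summit, and the glutamine family of 15 has 1.

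Internal promoter and terminator words were about as frequent in tRNA genes with a summit in the optimal list as in those without. The B box core GTTCNANNC was in 244 of 252 genes with a summit (96.8%, 93.9 to 98.4) and in 343 of 360 without (95.3%, 92.6 to 97.0). An A box core, searched as TNGCNNAG, was in 44.4% of genes with a summit and 43.3% of those without. Most genes held no match to this word, so these shares describe the word and not the presence of an A box. TTTT within 20 bp downstream was in 99.2% of genes with a summit and 97.8% of those without. Few genes lacked the B box core or TTTT, so these shares could differ little. The 25 genes without the B box core had a summit in 32% of cases (17.2 to 51.6), against 41.6% of those with it. The shares were 20% against 44.6% in replicate 1, 36% against 37.3% in replicate 2, and 60% against 88.6% in the relaxed pooled list. For the 10 genes without TTTT the relaxed pooled share was 50%, against 88.0%. Genes whose precursor carries an intron had a summit in 13 of 29 cases (44.8%, 28.4 to 62.5), against 239 of 583 (41.0%, 37.1 to 45.0) of those with none. The replicates differed in direction, with 37.9% against 43.9% in replicate 1 alone and 48.3% against 36.7% in replicate 2 alone.

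Around the summits, with both strands searched within 50 bp, the B box core was in 126 of 219 tRNA windows (57.5%, 50.9 to 63.9). It was in 69 of 1429 windows of other peaks (4.83%, 3.83 to 6.07) and in 3.53% of all genome windows of 101 bp. The choice of summits near tRNA genes brings this word with it. The A box core was in 74 tRNA windows (33.8%), 18.4% of windows of other peaks and 9.21% of genome windows. The forkhead word GTAAACA was in 10 tRNA windows (4.57%, 2.50 to 8.20), 27 windows of other peaks (1.89%, 1.30 to 2.74) and 1.12% of genome windows. Within 25 bp it was in 5 tRNA windows (2.28%) and 16 of other peaks (1.12%), and within 100 bp in 17 (7.76%) and 48 (3.36%). Matches of any pair of the 3 words shared bases in 0 of the 219 tRNA windows. A match is a description of the sequence. GC content within 50 bp had a median of 48.5% at tRNA summits and 45.5% at other summits.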

How the data were processed

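ChIP-seq peak lists of 2 biological replicates were used, all on ce11. Per the deposited text listings, the authors made relaxed lists for both replicates and for their pooled reads with 1 control file, and from these the optimal IDR (irreproducible discovery rate) list. Column 7 of the deposited lists is the authors' signal value, whose scale is not stated, and column 10 is the summit offset. No source used here names the aligner, peak caller or IDR threshold. The lists hold no read counts, so depth is unknown.

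Summits were joined to the Ensembl release 115 annotation of WBcel235 with Python 3.11.15, numpy 2.4.6 and pandas 2.3.3. Amino acids came from RefSeq, whose 612 nuclear tRNA genes have the same coordinates. Each replicate alone means its 1667 highest peaks. Wilson intervals at the 95% level (scipy 1.17.1) cover counting error over peaks or genes only. Figures were drawn with matplotlib 3.10.9. The scoring was tested on simulated data with summits placed at known genes. The genes named are the 10 peaks of highest and 5 of lowest signal, the 3 nearest the 500 bp limit on each side, the highest for each amino acid and on X, the largest clusters, unmatched members and extreme amino acids. Gene pairs and families were named after their values were seen. The members and lists were chosen with earlier results of these data known. Alternatives changed the distance, threshold, replicate, cluster gap, gene models and windows.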

Additional observations from a re-analysis of the deposited data

How the results depend on the processing

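No paired analysis was possible because the study has 1 group. Of 60 values under alternatives, 33 moved by less than the spread between replicates, or within the interval where there is none, and 27 by more. The count of tRNA peaks was 217 within 250 bp and 224 within 1000 bp. The upper part of the list by signal gave 78 peaks and 14.7% of tRNA genes, and the relaxed pooled list 526 and 87.4%. The replicates alone gave 202 to 224 peaks and 37.3% to 43.6%. The difference X minus autosomes was -4.41 points within 250 bp, -6.85 within 1000 bp, 5.76 in the relaxed list and -0.543 to 0.388 in the replicates. Clustered minus lone was 1.20 within 1000 bp, 4.54 in the relaxed list and -8.10 to -0.901 in the replicates. Intron minus intergenic was 0.442 within 1000 bp, -6.25 in the upper part, -2.81 in the relaxed list and 0.909 to 1.80 in the replicates. These 3 differences changed sign, and the cause was not tested.

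Glutamine reached 88.9% in the relaxed list and 11.1% to 25.9% in the replicates. Its alternatives and those of copy number were chosen after seeing the data. Single copy minus identical copies was -22.8 within 1000 bp, -8.24 in the upper part, -21.9 in the relaxed list and -21.2 to -18.6 in the replicates. The median rank percentile was 34.8 to 44.2 and the median summit position 18 to 19.5 bp in the replicates. The B box core was in 27.4% of tRNA windows within 25 bp and 94.1% within 100 bp. Depth is unknown, all lists share 1 control, and neighbouring genes can share a peak, so the intervals are too narrow for clusters.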
